A study of Homo sapiens with 6 samples.

Results

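Prostaglandin E2 is made and sensed by a short chain of proteins, and 9 of their genes were examined here: PLA2G4A, PTGS1, PTGS2, PTGES, PTGES2, PTGES3, PTGER2, PTGER4 and HPGD. They were chosen by name, with earlier results of these data known. Of the 9 genes, 8 had a row among the 23002 genes of the expression table. PTGER2 had none, so its expression was not analysed. Of the 8, 5 passed a mean of 0.5 FPKM (fragments scaled by transcript length and by the number of mapped reads) over the 6 samples, as did 11870 genes in all. The 5 tested genes were PLA2G4A, PTGS2, PTGES2, PTGES3 and PTGER4.

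Cytosolic phospholipase A2 cuts arachidonic acid out of membrane phospholipids, the cyclooxygenases turn it into prostaglandin H2, and prostaglandin E synthases isomerise that intermediate to prostaglandin E2. The product leaves the cell and binds G protein-coupled receptors, of which EP2 and EP4 raise cyclic AMP, and a cytosolic dehydrogenase ends the signal. In glioma and other tumours the inducible cyclooxygenase PTGS2 (COX-2) is the best known gene of this chain, and inflammatory cytokines are its classical inducers.

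Messenger RNA was sequenced from U251, an established human glioblastoma line. Both groups carried a lentiviral short hairpin under puromycin selection as stable lines grown in DMEM with fetal bovine serum. The hairpin was the study's control, whose target was not stated, in sh-NC (3 samples) and was directed at TRAF2, an adaptor and ubiquitin ligase of TNF receptors, in sh-TRAF2 (3 samples). The comparison asks what lowering TRAF2 does to transcripts in these cells. The methods say in general terms that experiments were repeated independently, but not whether the samples of a group were separate cultures or integrations, so every p-value measures the spread between these samples, which may be technical. The study designed these 2 hairpin targets, and the hairpin behind the sequenced samples was not stated, so both are shown:
sh-TRAF2#1: cccttgcagattccacgccat
sh-TRAF2#2: ctggaccaagacaagattgaa
All 21 bases of each target were found in TRAF2 transcripts (GENCODE 29). In the transcripts of the 9 genes the longest uninterrupted match was 11 bases, between sh-TRAF2#1 and PTGS1. PTGER4 matched either target over at most 8 bases and PLA2G4A over at most 9. Only the strand shown was searched and shorter matches were not counted. Whether a hairpin acted on any of these genes directly was not tested.

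TRAF2 itself was measured at 15.1, 18.4 and 15.3 FPKM in sh-NC and at 3.26, 3.22 and 3.33 FPKM in sh-TRAF2, so the groups did not overlap. The log2 fold change (sh-TRAF2 minus sh-NC, of FPKM + 0.1) was -2.27 ± 0.08 (SE, n = 3 per group; limma adjusted p = 1.16e-06). Reads recovered from the FPKM steps ran from 33999558 to 36823562 per sample. Levels differed widely among the listed astroglial and glioma markers, with VIM the highest (1242 FPKM on average in sh-NC and 1582 in sh-TRAF2). SOX9, SOX2 and SLC1A3 averaged 29.5, 25.4 and 11.2 FPKM in sh-NC and 31.7, 27.7 and 15.5 FPKM in sh-TRAF2. Of these, SLC1A3 passed the test (limma adjusted p = 0.00282). FABP7 averaged 0.627 and 0.907 FPKM, S100B was at or near 0 and AQP4 had no row. GFAP was low, at 0.467 FPKM in sh-NC and 1.18 FPKM in sh-TRAF2 (log2 fold change 1.11, limma adjusted p = 0.0382), a call lost in 6 of 15 alternative fits, among them those without sh-NC replicate 1 or 2 or sh-TRAF2 replicate 2 or 3 (adjusted p up to 0.132). The summed level of the 10 of 11 astroglial genes in the table was 1501 to 1575 FPKM in sh-NC and 1840 to 1887 FPKM in sh-TRAF2, most of it VIM. Its genes went both ways: NES rose from 5.35 to 11.7 FPKM (log2 fold change 1.12, limma adjusted p = 1.91e-05) and EGFR fell from 31.8 to 14.3 FPKM (log2 fold change -1.14, limma adjusted p = 2.23e-06). The leukocyte sum (3 of 7 genes in the table, nearly all of it CD68) was 16.3 to 17.1 and 15.4 to 17.8 FPKM, with PTPRC at or near 0. The neuronal sum (4 of 4 genes, nearly all of it SYT1 and TUBB3) was 36.5 to 39.1 and 30.8 to 31.2 FPKM. SYT1 fell from 25.1 to 13.8 FPKM (log2 fold change -0.86, limma adjusted p = 1.95e-05) while TUBB3 rose from 12.2 to 16.7 FPKM (log2 fold change 0.45, limma adjusted p = 1.52e-04). The endothelial and oligodendrocyte sums stayed below 0.124 FPKM. The part of these marker differences in the results that follow was not tested.

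The levels per length of the 8 genes were far apart. Averaged over the 6 samples, PTGES3 had the highest level (68.6 FPKM), followed by PTGES2 (24.6 FPKM) and PTGS2 (10.7 FPKM), and the ranges of these 3 genes did not touch. PTGER4 and PLA2G4A came next at 2.39 FPKM each, an order that their spread does not resolve. PTGS1 (0.0628 FPKM), HPGD (0.0414 FPKM) and PTGES (0.0161 FPKM) lay far lower, and their ranges overlapped. PTGS2 stood above 79.0% of the genes in the table and PTGER4 above 60.5%.

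**Figure D1:**
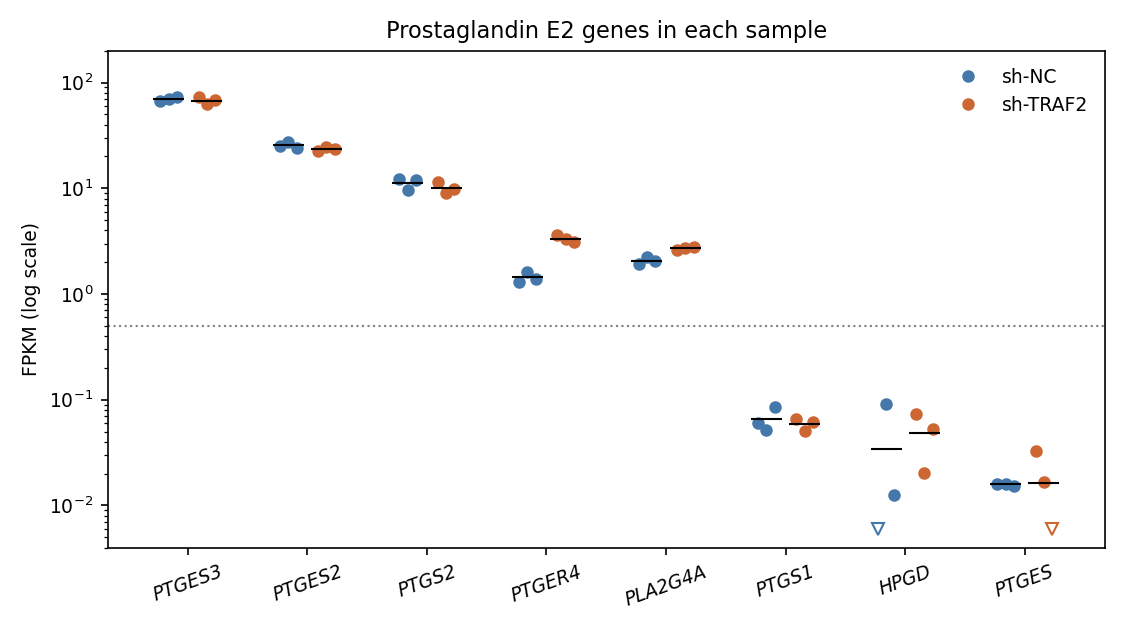
FPKM (log axis) of the 8 genes with a row, ordered by mean level, in the 3 sh-NC and the 3 sh-TRAF2 samples. Filled points are samples, black lines are group means, open triangles mark samples at 0 placed at the foot of the axis, and the dotted line is the 0.5 FPKM filter; the sh-TRAF2 points lie wholly above the sh-NC points for PTGER4 and PLA2G4A only.

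Of the chain, 2 genes rose in sh-TRAF2, the EP4 receptor gene PTGER4 and the phospholipase gene PLA2G4A, whereas PTGS2, PTGES2 and PTGES3 did not pass the test. At an adjusted p under 0.05, 2 of the 5 tested genes were higher and 0 lower by limma, against 23.7% of all tested genes higher and 20.9% lower. The count of lower genes was 0 at an unadjusted p under 0.05 too, and a limma-voom fit to the recovered reads gave the same 2 and 0. With a log2 fold change beyond 1 as a further condition, 1 of the 5 was higher, against 0.986% of all tested genes, and 0 were lower, against 0.733%. The groups did not overlap for 2 of the 5, against 55.5% of all tested genes. So many genes differed between these groups that calling 2 of 5 does not set the chain apart, and the median log2 fold change of the 5 genes was -0.05 beside 0.02 for all tested genes.

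PLA2G4A encodes cytosolic phospholipase A2 alpha, which frees arachidonic acid and so supplies the substrate of the whole chain. It was measured at 1.92, 2.23 and 2.06 FPKM in sh-NC (207, 242 and 232 reads) and at 2.60, 2.73 and 2.80 FPKM in sh-TRAF2 (275, 284 and 298 reads). Every sh-TRAF2 sample was above every sh-NC sample. The group means were 2.07 ± 0.157 and 2.71 ± 0.099 FPKM (SD, n = 3 each), a ratio of 1.31. The log2 fold change was 0.38 ± 0.09 (SE), with a 95% confidence interval from 0.18 to 0.57 (limma adjusted p = 0.00789). For this and every other gene, an exact permutation test over the 20 assignments of the samples cannot give a two-sided p below 0.1, the value it gave here.

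The list of other phospholipases A2 and further genes of arachidonic acid handling went both ways. Of 18 listed genes 12 were tested, 3 rose and 2 fell, with a median log2 fold change of -0.06. These counts are near the shares over all tested genes, 23.7% higher and 20.9% lower, and do not set the list apart. PLA2G4C, the calcium-independent relative of PLA2G4A, rose from 2.38 ± 0.243 to 3.66 ± 0.438 FPKM (log2 fold change 0.60, adjusted p by limma = 0.00254). MBOAT7 (15.5 ± 0.070 to 12.98 ± 0.165 FPKM, log2 fold change -0.25, limma adjusted p = 0.00154) and LPCAT3 (6.17 ± 0.639 to 4.90 ± 0.297 FPKM, log2 fold change -0.32, limma adjusted p = 0.0151) fell; both put polyunsaturated fatty acids back into phospholipids. LPCAT3 lost its call without the sh-TRAF2 replicate 1 (limma adjusted p = 0.0514).

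PTGS2 encodes the inducible cyclooxygenase, and PTGS1 its constitutive relative. PTGS2 was measured at 12.1, 9.67 and 11.9 FPKM in sh-NC (1950, 1561 and 1992 reads) and at 11.4, 9.11 and 9.93 FPKM in sh-TRAF2 (1796, 1410 and 1571 reads). The groups overlapped, and replicate 2 was the lowest sample of either group. The means were 11.2 ± 1.36 and 10.2 ± 1.18 FPKM (SD, n = 3 each). The log2 fold change was -0.14 ± 0.11 (SE) with a 95% confidence interval from -0.39 to 0.10, that is a fold between 0.766 and 1.07 (limma adjusted p = 0.305; exact permutation p = 0.3, two-sided). A fall by more than the lower bound, or a rise beyond 1.07-fold, thus lay outside the interval for these samples.

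PTGS1 was near the floor, at 21, 18 and 31 reads in sh-NC and 22, 17 and 21 reads in sh-TRAF2 (0.0511 to 0.0860 FPKM over the 6 samples). In a fit without the level filter its log2 fold change was -0.06, with a 95% confidence interval from -0.34 to 0.23 (limma adjusted p = 0.784). Of the FPKM summed over both cyclooxygenases, PTGS2 made up 99.42% ± 0.118 in sh-NC and 99.42% ± 0.0325 in sh-TRAF2 (SD, n = 3 each; exact permutation p = 1). Of the pair, nearly all transcript was thus PTGS2 in either group.

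The 3 tested genes nearest to PTGS2 in their pattern over the 6 samples, by root-mean-square distance of centred log2 values, were HPSE (heparanase; 0.0342), ZNF391 (0.0391) and GPALPP1 (0.0443). None of the 3 passed the test between the groups, and their limma adjusted p-values were 0.308, 0.558 and 0.391.

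Of the 3 synthases, PTGES3 and PTGES2 were abundant and PTGES was at the floor. PTGES3, also known as p23 and a cochaperone of HSP90, was measured at 66.2, 69.9 and 72.8 FPKM in sh-NC and at 72.4, 62.2 and 67.9 FPKM in sh-TRAF2. The groups overlapped, and the log2 fold change was -0.05 ± 0.06 (SE; 95% confidence interval -0.18 to 0.09; limma adjusted p = 0.546). PTGES3 has 5 named processed pseudogenes in GENCODE 29, whose reads the counting could have split, so its level is uncertain to that extent.

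PTGES2, a membrane-associated synthase that is expressed constitutively, was measured at 25.2, 27.5 and 23.9 FPKM in sh-NC and at 22.6, 24.7 and 23.8 FPKM in sh-TRAF2. Here too the groups overlapped, with a log2 fold change of -0.10 ± 0.06 (SE; 95% confidence interval -0.24 to 0.03; limma adjusted p = 0.192). PTGES encodes the microsomal synthase that is usually coupled to PTGS2. Its transcript was barely seen, at 1, 1 and 1 reads in sh-NC and 2, 1 and 0 reads in sh-TRAF2, too few to compare the groups. PTGES3 made up 73.2% ± 1.88 of the FPKM summed over the 3 synthases in sh-NC and 73.9% ± 2.33 in sh-TRAF2 (SD, n = 3 each; exact permutation p = 0.8).

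HSP90 and its other cochaperones, the partners of PTGES3, were examined for comparison. All 14 listed genes were tested, 8 rose and 1 fell, and the median log2 fold change was 0.19. For comparison, 23.7% of all tested genes were higher and 20.9% lower. HSP90AA1, the inducible HSP90, rose from 127 ± 3.59 to 222 ± 4.79 FPKM (log2 fold change 0.81, limma adjusted p = 2.66e-06). FKBP4, a cochaperone of steroid receptor complexes, rose from 13.1 ± 0.591 to 20.9 ± 1.54 FPKM (log2 fold change 0.67, limma adjusted p = 1.08e-04). AHSA1, the activator of the HSP90 ATPase, fell from 53.8 ± 3.14 to 34.7 ± 0.978 FPKM (log2 fold change -0.63, limma adjusted p = 4.23e-05).

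Among the MAPEG family, the membrane proteins to which PTGES belongs, 4 of 6 genes were tested. MGST1, a microsomal glutathione transferase, fell from 86.9 ± 3.02 to 68.9 ± 3.79 FPKM (log2 fold change -0.34, limma adjusted p = 8.09e-04), and its relative MGST3 rose from 50.5 ± 0.615 to 56.1 ± 1.76 FPKM (log2 fold change 0.15, limma adjusted p = 0.0107). The MGST3 call was lost under quantile normalization (log2 fold change 0.09, limma adjusted p = 0.076). The median of the family was 0.01.

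PTGER4 encodes EP4, the receptor that couples prostaglandin E2 to stimulation of adenylyl cyclase, and it changed most. It was measured at 1.29, 1.63 and 1.38 FPKM in sh-NC (190, 242 and 213 reads) and at 3.58, 3.33 and 3.13 FPKM in sh-TRAF2 (517, 474 and 455 reads). The lowest sh-TRAF2 sample lay well above the highest sh-NC sample. The means were 1.43 ± 0.178 and 3.35 ± 0.228 FPKM (SD, n = 3 each), a ratio of 2.34. The log2 fold change was 1.17 ± 0.11 (SE), with a 95% confidence interval from 0.93 to 1.42 (limma adjusted p = 8.74e-05), and 68 of the 11870 tested genes had a larger one. In bulk RNA, more cells with the transcript and more transcript per cell cannot be told apart.

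With FPKM + 1 in place of FPKM + 0.1 the PTGER4 log2 fold change was 0.84, below the fold threshold of 1, with the call at an adjusted p under 0.05 kept. The gene lies on chromosome 5 (GRCh38, 40679498 to 40693735, plus strand) within the span of TTC33 on the other strand. The exons of PTGER4 and TTC33 shared 0 bases, and TTC33 was measured at 1.98 to 2.14 FPKM in sh-NC and at 1.97 to 2.32 FPKM in sh-TRAF2 (log2 fold change 0.01, limma adjusted p = 0.928). PTGER4 has 2 named pseudogenes, neither with a row of its own.

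The order of PTGER4 and PLA2G4A turned over between the groups. PLA2G4A was above PTGER4 in 3 of 3 sh-NC samples and below it in 3 of 3 sh-TRAF2 samples. The log2 ratio of PTGER4 to PLA2G4A was -0.57, -0.45 and -0.57 in sh-NC and 0.46, 0.29 and 0.16 in sh-TRAF2. The mean ratio thus differed by 0.84 on the log2 scale, a comparison chosen after the values were seen (exact permutation p = 0.1, the smallest possible with 3 against 3).

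The other prostanoid receptors were mostly close to the floor. Of 8 listed genes, 6 were in the table and 2 were tested. PTGER1 and PTGER3, the EP1 and EP3 receptor genes, averaged 0.170 and 0.0323 FPKM in sh-NC and 0.123 and 0.0174 FPKM in sh-TRAF2. PTGFR, the prostaglandin F receptor gene, averaged 0.833 and 0.796 FPKM and did not pass the test (limma adjusted p = 0.808). PTGFRN, a membrane protein named as a negative regulator of that receptor, fell from 4.28 ± 0.441 to 2.81 ± 0.251 FPKM (log2 fold change -0.59, limma adjusted p = 0.00184).

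Downstream of EP4, 17 of 23 genes of cyclic AMP signalling were tested, 6 rose and 4 fell, with a median log2 fold change of 0.19. Over all tested genes 23.7% were higher and 20.9% lower. PRKAR2B, a regulatory subunit of protein kinase A, rose from 0.653 ± 0.125 to 1.24 ± 0.0307 FPKM (log2 fold change 0.85, limma adjusted p = 0.00272). PRKAR1A, another regulatory subunit, rose from 39.0 ± 2.05 to 47.2 ± 1.44 FPKM (log2 fold change 0.28, limma adjusted p = 0.00219), and the adenylyl cyclase gene ADCY9 from 2.07 ± 0.113 to 2.90 ± 0.157 FPKM (log2 fold change 0.47, limma adjusted p = 0.00228). ADCY3, another adenylyl cyclase gene, rose from 6.75 ± 0.0873 to 8.12 ± 0.343 FPKM (log2 fold change 0.26, limma adjusted p = 0.00469). Other parts of the same machinery fell. The adenylyl cyclase gene ADCY6 fell from 3.38 ± 0.124 to 2.42 ± 0.286 FPKM (log2 fold change -0.47, limma adjusted p = 0.00449), the catalytic subunit gene PRKACB from 5.69 ± 0.377 to 4.70 ± 0.0537 FPKM (log2 fold change -0.27, limma adjusted p = 0.0105) and the arrestin gene ARRB2 from 32.5 ± 2.58 to 26.9 ± 1.51 FPKM (log2 fold change -0.27, limma adjusted p = 0.0105). ADCY7, also an adenylyl cyclase gene, was the remaining gene that fell (log2 fold change -0.32, limma adjusted p = 0.0367). Its call was lost in 7 of the 15 alternative fits, 5 of them without a single sample other than sh-NC replicate 2 (adjusted p up to 0.122). The targets of cyclic AMP in the list were divided. CREM and PER1 rose (log2 fold changes 0.37 and 0.29, limma adjusted p = 0.00745 and 0.0112), whereas NR4A1 and NR4A2 had log2 fold changes of 0.20 and 0.19 and did not pass the test (limma adjusted p = 0.329 and 0.283).

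HPGD encodes the dehydrogenase that inactivates prostaglandin E2. It gave 0, 14 and 2 reads in sh-NC and 11, 3 and 8 reads in sh-TRAF2, so the groups overlapped and no difference was detectable at this depth. The log2 ratio of PTGS2 to HPGD was 8.32 ± 2.23 in the 2 sh-NC samples with an HPGD read and 7.89 ± 0.815 in sh-TRAF2 (SD, n = 3; exact permutation p = 0.8). The sh-NC mean thus leaves out replicate 1, which had 0 HPGD reads and the highest PTGS2 level. Leaving out single samples moved the difference (sh-TRAF2 minus sh-NC) between -2.01 and 1.15, so this ratio is not settled.

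Prostaglandins also need carriers to cross membranes. SLCO2A1, the uptake transporter that brings prostaglandin E2 to the dehydrogenase, was below the filter and is described because its values stood out once seen: it gave 13, 27 and 23 reads in sh-NC and 3, 4 and 4 reads in sh-TRAF2. These groups did not overlap. Its log2 fold change was -0.92 ± 0.17 (SE) in the limma fit without a filter (adjusted p = 0.0114) and -2.26 ± 0.49 in a limma-voom fit to the recovered reads (adjusted p = 0.00269). ABCC4, an exporter of prostaglandins, fell from 6.87 ± 0.387 to 5.53 ± 0.429 FPKM (log2 fold change -0.31, limma adjusted p = 0.0098). It was the only call among the 3 of 5 transport genes tested, beside 20.9% of all tested genes lower.

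Other routes from the same precursors were examined as well. Of the other prostanoid synthases and reductases 9 of 16 listed symbols were tested, 0 rose and 2 fell by limma, with a median log2 fold change of -0.12. The shares over all tested genes were 23.7% higher and 20.9% lower. The count that rose was 0 at an unadjusted p under 0.05 and in the limma-voom fit as well. The most abundant of them was the aldose reductase gene AKR1B1, at 152 ± 8.53 FPKM in sh-NC and 144 ± 4.79 FPKM in sh-TRAF2, above every gene of the chain. It did not pass the test (limma adjusted p = 0.209), except under quantile normalization (log2 fold change -0.14, adjusted p = 0.0206). Those that fell were the carbonyl reductase gene CBR1 (18.3 ± 0.678 to 15.5 ± 0.484 FPKM, log2 fold change -0.24, limma adjusted p = 0.00393) and AKR1C1 (2.69 ± 0.0753 to 2.23 ± 0.145 FPKM, log2 fold change -0.26, limma adjusted p = 0.0283). AKR1C1 has close paralogs that could share its reads, and it lost its call in 5 of the 15 alternative fits, with no level filter and without sh-NC replicate 1 or 3 or sh-TRAF2 replicate 1 or 2 (adjusted p up to 0.0879). Of the lipoxygenase branch 5 of 14 genes were tested, and ALOXE3, an epidermal-type lipoxygenase, rose from 0.964 ± 0.152 to 1.38 ± 0.0856 FPKM (log2 fold change 0.48, limma adjusted p = 0.0207), a call lost with no level filter and without sh-NC replicate 3 or sh-TRAF2 replicate 1 or 2 (adjusted p up to 0.068).

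Of the regulators of PTGS2, all 21 listed genes were tested, 8 rose and 6 fell, beside 23.7% higher and 20.9% lower over all tested genes. Of those that rose, 3 went past the fold threshold of 1 (0.986% over all tested genes), and the median log2 fold change of the list was -0.06. Interleukin 1, a classical inducer of PTGS2, was among the genes that rose. IL1B was measured at 9.06, 7.54 and 6.80 FPKM in sh-NC and at 26.8, 25.5 and 24.7 FPKM in sh-TRAF2 (log2 fold change 1.71 ± 0.09 SE, limma adjusted p = 8.18e-06). IL1A was measured at 67.5, 59.9 and 59.4 FPKM in sh-NC and at 111, 104 and 102 FPKM in sh-TRAF2 (log2 fold change 0.76 ± 0.06 SE, limma adjusted p = 3.41e-05). For both cytokines every sh-TRAF2 sample was above every sh-NC sample.

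TNF, another inducer and the ligand of the receptors that TRAF2 serves, is named here because of its place in the study and was picked after its values were seen. It was measured at 12.1, 12.3 and 11.0 FPKM in sh-NC and at 19.3, 25.3 and 20.6 FPKM in sh-TRAF2 (log2 fold change 0.87 ± 0.10 SE, limma adjusted p = 2.26e-04). Transcription factors in the list went both ways. FOS rose from 0.293 ± 0.0474 to 1.36 ± 0.264 FPKM (log2 fold change 1.89, limma adjusted p = 1.38e-04), EGR1 from 7.83 ± 1.92 to 16.7 ± 1.04 FPKM (log2 fold change 1.11, limma adjusted p = 6.85e-04) and JUN from 170 ± 5.40 to 226 ± 4.81 FPKM (log2 fold change 0.41, limma adjusted p = 6.04e-05). ATF3, also an immediate-early gene, had a log2 fold change of -0.07 and did not pass the test (limma adjusted p = 0.533). CEBPB, CREB1 and NFKB1 fell, with log2 fold changes of -0.15, -0.23 and -0.16 (limma adjusted p = 0.0117, 0.0131 and 0.0101). RELA, the other NF-kappaB subunit in the list, rose from 50.3 ± 2.03 to 58.4 ± 0.560 FPKM (log2 fold change 0.22, limma adjusted p = 0.00292). CREB1 lost its call without sh-NC replicate 1 and without sh-TRAF2 replicate 3 (limma adjusted p = 0.0513 and 0.05). NR3C1, the glucocorticoid receptor gene, also fell, from 9.80 ± 0.417 to 8.45 ± 0.244 FPKM (log2 fold change -0.21, limma adjusted p = 0.0131).

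Among proteins that bind AU-rich elements of messenger RNA, calls also lay in both directions. ZFP36L1, which speeds the decay of transcripts with such elements, fell from 93.3 ± 4.61 to 48.9 ± 2.58 FPKM (log2 fold change -0.93, limma adjusted p = 8.18e-06). Its relative ZFP36 (tristetraprolin) had a log2 fold change of -0.14 and did not pass the test (limma adjusted p = 0.148). KHSRP, another decay factor, rose from 102 ± 0.924 to 130 ± 2.28 FPKM (log2 fold change 0.35, limma adjusted p = 6.86e-05), and TIA1, a translational silencer, fell (log2 fold change -0.35, limma adjusted p = 7.16e-04). ELAVL1 and CELF2, also in the list, had log2 fold changes of 0.03 and 0.08 and did not pass the test (limma adjusted p = 0.64 and 0.622).

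**Figure D2:**
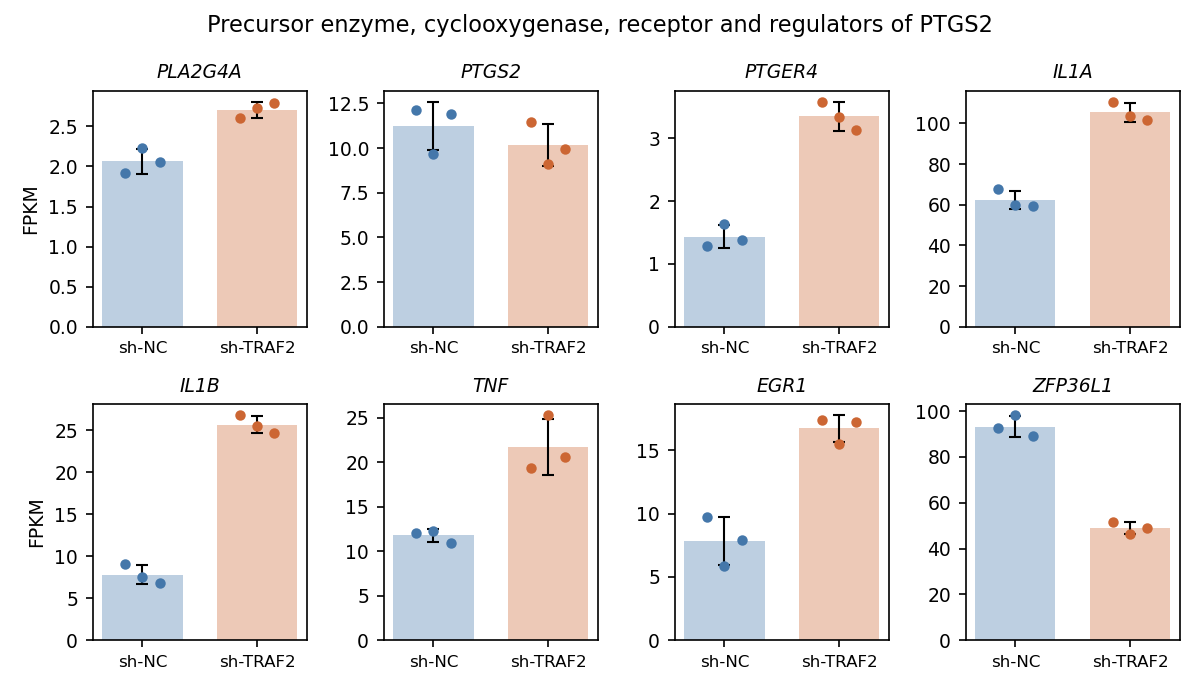
FPKM (vertical axes from 0, scaled per gene) of PLA2G4A, PTGS2, PTGER4 and of 5 genes listed as regulators of PTGS2, in sh-NC and sh-TRAF2. Points are samples, bars are means and error bars are SD (n = 3 each); the groups overlap for PTGS2 only, at means of 11.2 and 10.2 FPKM, while IL1B is higher in sh-TRAF2 and ZFP36L1 lower.

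AU-rich decay is read out by the pentamer ATTTA in the 3' untranslated region, so this pentamer was counted in the longest annotated region of each gene. PTGS2 held 22 in 2562 bases, or 8.59 per kilobase, a density above that of 98.5% of the 10578 tested genes with an annotated region, whose median was 1.79 per kilobase. PLA2G4A held 4 in 473 bases (8.46 per kilobase, above 98.4%) and PTGER4 held 9 in 1357 bases (6.63 per kilobase, above 96.4%). PTGES3 held 6 in 1136 bases (5.28 per kilobase, above 92.5%), and PTGES2 held 0 in 452 bases. By count rather than density, PTGS2 exceeded 97.2% of those genes, PTGER4 81.7%, PTGES3 70.2% and PLA2G4A only 58.5%, so the rank of PLA2G4A rests on its short region. The 30 bases that follow the PTGS2 stop codon are shown because 3 overlapping pentamers, in capitals, lie in them:
PTGS2: aagtctaatgatcatATTTATTTATTTAta
The count is a description of letters and does not show binding or decay.

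PTGS2 and PLA2G4A both lie on chromosome 1 of GRCh38. PTGS2 spans 186671791 to 186680427 on the minus strand and PLA2G4A 186828953 to 186988981 on the plus strand, 148.5 kilobases apart, and PLA2G4A was called whereas PTGS2 was not. The difference between their fold changes was not tested. The promoter windows of both genes and of PTGER4 are shown, from 250 bases before to 50 bases after the start site given by RefSeq (GRCh38.p14), 5' to 3' on the strand of the gene, because these genes separate the chain into a part that rose and a part that did not pass the test. Capitals mark matches on either strand to 5 motifs: GGGNNNNNCC for NF-kappaB, TGANTCA for AP-1, CGTCA for the core of a cyclic AMP response element, CACGTG for an E-box and TATAAA for a TATA box. PTGS2 lies at chr1:186680374-186680673 (minus strand), PLA2G4A at chr1:186828699-186828998 (plus strand) and PTGER4 at chr5:40679665-40679964 (plus strand):
PTGS2: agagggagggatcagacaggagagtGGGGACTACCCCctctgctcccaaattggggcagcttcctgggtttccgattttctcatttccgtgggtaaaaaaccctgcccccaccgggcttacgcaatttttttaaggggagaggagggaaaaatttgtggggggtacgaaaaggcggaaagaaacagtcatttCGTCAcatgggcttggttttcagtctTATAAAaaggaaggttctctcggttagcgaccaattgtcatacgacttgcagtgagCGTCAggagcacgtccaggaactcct
PLA2G4A: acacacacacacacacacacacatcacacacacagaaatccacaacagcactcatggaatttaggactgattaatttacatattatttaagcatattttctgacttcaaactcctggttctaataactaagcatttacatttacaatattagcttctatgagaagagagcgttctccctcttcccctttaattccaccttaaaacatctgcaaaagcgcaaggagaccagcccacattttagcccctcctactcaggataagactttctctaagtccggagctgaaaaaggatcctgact
PTGER4: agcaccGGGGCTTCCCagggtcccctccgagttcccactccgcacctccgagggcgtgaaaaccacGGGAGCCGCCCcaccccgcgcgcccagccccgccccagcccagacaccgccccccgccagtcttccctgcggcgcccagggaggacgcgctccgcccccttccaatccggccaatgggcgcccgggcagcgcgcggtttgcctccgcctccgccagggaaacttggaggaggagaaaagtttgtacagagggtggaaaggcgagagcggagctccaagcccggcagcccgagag
The PTGS2 window held a TATA box at -32, CGTCA at -58 and at 25 relative to the start, and 1 place with overlapping matches to the NF-kappaB motif beginning at -225. The PTGER4 window held the NF-kappaB motif in 2 places, beginning at -244 and -184, and none of the other 4 motifs. The PLA2G4A window held none of the 5, and it was poorer in G and C (39.7%) than the PTGS2 (50.7%) and PTGER4 (72%) windows. Among 35116 promoter windows of the same length, 58.7% held the NF-kappaB motif, 24.6% CGTCA, 11.5% TATAAA, 7.71% the AP-1 motif and 7.26% the E-box, so the NF-kappaB letters are common and do not set PTGER4 or PTGS2 apart. A missing match says only that these letters are not in the window.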

How the data were processed

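RNA sequencing of U251 cells (3 sh-NC and 3 sh-TRAF2 samples) was done by a sequencing provider, and the authors deposited 1 table of FPKM per gene and sample. The labels assign the groups as NC and KD, and the study's methods identify the knockdown. HISAT2, HTSeq, DESeq2 and R 3.2.0 are named in the processing notes of the authors; their roles, the genome build, the annotation and the strand setting are not given in the sources used here.

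From the FPKM, log2(FPKM + 0.1) of genes with a mean of at least 0.5 was compared using limma 3.58.1 in R 4.3.3 (trended eBayes, two-sided tests), using Benjamini-Hochberg adjusted p-values over the 11870 genes. The pseudocount shrinks fold changes of low genes. A gene was called at an adjusted p under 0.05, and past the fold threshold at an absolute log2 fold change above 1. FPKM of a gene are whole multiples of the value of 1 read, so reads were recovered within a tolerance of 0.01, and the recovery was checked on simulated data. They are the smallest whole numbers with the observed ratios. Chi-square values between replicates were 5.01 to 12.2 per gene, so no library was a copy of another. The fit was tested on simulated data with known changes.

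Members and the 9 further lists were chosen with earlier results of these data known. Named were the members, TRAF2, in each list the genes past both thresholds and the 3 next smallest adjusted p-values, and the 3 genes nearest to PTGS2 in pattern by log2 level. TNF, SLCO2A1, ZFP36, NR4A1, NR4A2, PTGFR, PTGER1, PTGER3, TTC33, CEBPB, CREB1, NFKB1, ATF3, KHSRP, TIA1, CREM, PER1, ADCY6, ADCY7, PRKACB, ARRB2, AKR1B1 and the cell type markers were named besides, with their values known. RELA, ADCY3, NR3C1, ELAVL1 and CELF2 were likewise named with their values known. Promoters came from RefSeq (GRCh38.p14), gene positions and 3' untranslated regions from GENCODE 29, and hairpins from the study's supplement. All 9 members had a promoter entry. Alternatives covered the pseudocount, filter, scaling, moderation, recovered reads, replicate block and leaving out each sample.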

Additional observations from a re-analysis of the deposited data

How the results depend on the processing

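PTGER4, PLA2G4A and TRAF2 kept their direction and their call at an adjusted p under 0.05 by limma in all 15 alternative fits, and PTGS2, PTGES2 and PTGES3 passed in none of them. The log2 fold change of PTGER4 ranged from 0.84 to 1.26, of PLA2G4A from 0.28 to 0.43 and of PTGS2 from -0.25 to -0.07 (adjusted p from 0.066 to 0.663). With a pseudocount of 1, PTGER4 was at 0.84, so 0 members lay past both thresholds, and the counts over all tested genes were 46 higher and 41 lower, as the larger pseudocount shrinks low genes. Limma-voom on the recovered reads, over 14130 genes, put 239 higher and 174 lower past both thresholds; the cause was not tested. The difference in the PTGS2 share of both cyclooxygenases was -0.0856 percentage points on FPKM + 0.1. Across 40 called genes named outside the chain, without RELA, ADCY3, NR3C1 and SLC1A3, 26 of 597 comparisons lost the call and 0 reversed. The losses were ADCY7 7, GFAP 6, AKR1C1 5, ALOXE3 4, CREB1 2, LPCAT3 1 and MGST3 1. Across 11 of the named genes without a call, 3 of 162 comparisons gained it (CD44 2, AKR1B1 1). These cover genes above the filter only, and for those outside the naming rule the comparisons were chosen after seeing the data. Deviations of samples with the same replicate number had correlations of -0.0812, 0.0722 and 0.0728 for numbers 1, 2 and 3. Numbers 2 and 3 correlated best with their own number and number 1 did not. Values this small cannot settle whether the samples were paired. With the replicate block 5451 genes were called in place of 5297, and 2 of the 5 tested members as before. The PTGER4 share of both cyclic AMP-coupled receptors could not be computed without a PTGER2 value. Depth limits PTGS1, PTGES and HPGD, each with at most 31 reads in every sample.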
